A study of Mus musculus with 6 samples.

Results

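Liver dendritic cells marked by Cd209a were taken from scRNA-seq of non-parenchymal liver cells of mice with NASH. Of 27544 cells kept out of 33168 deposited barcodes, 435 were members. A cell was kept with under 5000 genes and under 5% mitochondrial UMIs (unique molecular identifiers, 1 per captured RNA molecule). A member had at least 2 UMIs of Cd209a, 0 of Xcr1 and Clec9a together, at most 1 of Siglech, at most 5 of C1qa, C1qb and C1qc together, and at most 1 of Cd79a and Cd3e together. The members were thus chosen by their UMIs of these genes, whose levels here are a description and were not tested. Members carried a median of 6 and at most 53 Cd209a UMIs. Just inside the threshold, 67 members had 2 Cd209a UMIs, and 175 further cells that met the other conditions had 1. At the C1q limit, 2 members had 5 UMIs and 3 cells with 6 stayed outside. Of 627 cells with at least 2 Cd209a UMIs, 109 failed on Xcr1 and Clec9a, 104 on Siglech, 32 on C1q and 4 on Cd79a and Cd3e, some of them on several.

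The mice were male C57BL/6J, 8 weeks old at the start, and all of them, controls included, ate a high-fat diet for 24 weeks. In the last 8 weeks they received vehicle (DMSO) or ginkgetin, a biflavone of Ginkgo biloba, at 10 mg/kg per day into the stomach. No chow-fed liver was in these files, so levels in a healthy liver were not analysed here. Libraries were made on the 10x Genomics Chromium system, 3 per group, and whether each came from 1 mouse was not given in the sources used here, so the tests measure the spread between these libraries.

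Conventional dendritic cells take up antigen, process it and present it on MHC class II molecules to CD4 T cells. They depend on the cytokine receptor Flt3 and fall into a type 1 lineage, which needs Irf8 and Batf3 and carries Xcr1 and Clec9a, and a type 2 lineage, which uses Irf4 and Klf4 and carries Sirpa and, in many tissues, the lectins Cd209a, Clec10a and Mgl2. Type 2 cells overlap with monocytes in many surface genes, so the separation of those populations in the liver rests on several markers rather than on one.

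The markers of type 2 dendritic cells were present in the members. Cd209a lies on chromosome 8 at 3743395 to 3748984, Flt3 on chromosome 5 at 147330741 to 147400489 and H2-Ab1, a class II chain, on chromosome 17 at 34263227 to 34269418 (GRCm38). In each library the members' UMIs were summed and given as CPM, a gene's count scaled to a fixed total. Cd209a stood at 1260, 991 and 705 CPM in vehicle replicates 1 to 3 and at 933, 893 and 853 CPM in ginkgetin replicates 1 to 3. H2-Ab1 was at 12191, 8874 and 10368 CPM under vehicle and at 8665, 6862 and 9133 CPM under ginkgetin. Flt3 was at 108, 87.0 and 128 CPM under vehicle and at 114, 71.6 and 197 CPM under ginkgetin. Both genes overlapped between the treatments.

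Among the 7 Cd209 genes, Cd209a held nearly all UMIs of the members, with 3757. Cd209d had 101 UMIs, Cd209c 17, Cd209b 10, Cd209e 8, and Cd209f and Cd209g had 0. These genes lie side by side on chromosome 8 and resemble each other, so a small part of the reads could have been split between them.

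To set detection against free RNA, cells of at least 2000 UMIs were thinned to 2000 UMIs and the others left out, among them 1 member. Members were compared with T cells, which should lack these genes. H2-Ab1 was found in 95.9% of 434 thinned members and 13.7% of 1884 thinned T cells, and Flt3 in 18.0% and in 0 of 1884, which allows up to 0.159%. Unthinned, H2-Ab1 was found in 98.2% of the 435 members and 26.0% of 1939 T cells, and Flt3 in 52.2% and 0.206%. The lectins Clec10a (30.9% against 0.159% after thinning) and Mgl2 (14.5% against 0 of 1884) also set the members apart. Apoe did not, with 49.5% of thinned members and 48.8% of thinned T cells, so its presence in a member is at the background level. The median depth was 8538 UMIs in members, and 2923 to 6226 UMIs in T cells by library.

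Marker genes of B, T and NK cells were low in the members, of which the gate on Cd79a and Cd3e had already removed cells with B or T cell UMIs. No member met an NK cell criterion of at least 2 marker UMIs, 1 met the neutrophil criterion and 2 met the B or T cell criterion. The summed level of 5 B cell genes was 10.5 to 11.4 CPM under vehicle and 16.6 to 38.2 CPM under ginkgetin, and 3 of 5 NK cell genes were at 0 in all members. The lists of some other myeloid classes and of hepatocytes reached higher levels. Summed in the members, 7 plasmacytoid dendritic genes were at 332 to 478 CPM, against 159 to 439 CPM in Xcr1/Clec9a cells. The sum was 242 to 509 CPM for 5 patrolling monocyte genes and 229 to 502 CPM for 7 type 1 dendritic genes. It was 86.0 to 207 CPM for 10 Kupffer cell or macrophage genes and 22.8 to 337 CPM for 5 hepatocyte genes. In T cells the Kupffer cell or macrophage genes were at 48.5 to 243 CPM and the hepatocyte genes at 22.4 to 758 CPM. The members' sums of these lists thus lay within the T cell range. The gate rule fixed Xcr1 and Clec9a of the type 1 list at 0 and limited Siglech and the C1q genes. A count of 0 in 435 members allows a share of up to 0.690% of these pooled cells to hold a UMI, and such limits cover counting error at this depth only, not the spread between libraries. The libraries held 13128697 to 61796882 UMIs each. Ginkgetin replicate 2 stood apart. In it 49 of 64 members (76.6%) had at least 2 UMIs of the endothelial genes Kdr, Ptprb and Stab2, against 0 to 5.56% of members elsewhere, and 57.3% of its T cells and 46.4% of its B cells did too. Endothelial cells made up 61.0% of its kept cells, against 9.64 to 38% in the others. The summed level of 6 endothelial genes in members was 29.0 to 63.3 CPM under vehicle and 99.6 to 700 CPM under ginkgetin. In the other ginkgetin libraries that sum was 196 and 99.6 CPM. The part of this library's endothelial RNA in the results below was not tested, and without the library 1 gene was called between treatments in place of 7. Libraries shared 266 barcodes, and no barcode was a member in more than 1 library.

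The members were a smaller share of cells in every ginkgetin library than in every vehicle library. They were 150 of 6017 kept cells in vehicle replicate 1 (2.49%, Wilson 95% interval 2.13 to 2.92%), 49 of 3336 in replicate 2 (1.47%, 1.11 to 1.94%) and 98 of 4137 in replicate 3 (2.37%, 1.95 to 2.88%). Under ginkgetin they were 38 of 3493 (1.09%, 0.794 to 1.49%), 64 of 6918 (0.925%, 0.725 to 1.18%) and 36 of 3643 (0.988%, 0.715 to 1.36%). The groups did not overlap. The mean was 2.11% ± 0.559 under vehicle and 1.0% ± 0.0821 under ginkgetin (SD, n = 3 each), a difference of -1.11 points with an exact two-sided permutation p of 0.10, which is the smallest that 3 against 3 can give. The intervals cover counting error only.

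The denominator of that share moved as well, since endothelial cells were 9.64 to 20.1% of kept cells under vehicle and 32.0 to 61.0% under ginkgetin. Against the other dendritic cells the gap was smaller. Members were 45.2, 35.8 and 42.4% of the cells in 4 dendritic gates (Cd209a, Xcr1 with Clec9a, Siglech, and Ccr7 with Fscn1) under vehicle and 37.3, 30.5 and 27.5% under ginkgetin. The means were 41.1% ± 4.84 and 31.7% ± 5.01 (SD, n = 3 each), the groups overlapped, and the exact permutation p was 0.20.

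The cells of the Xcr1/Clec9a gate, which holds type 1 dendritic cells, were 1.71, 1.53 and 2.30% of kept cells under vehicle and 1.57, 1.20 and 1.87% under ginkgetin (exact permutation p 0.5). The number of members per Xcr1/Clec9a cell was therefore 1.46, 0.961 and 1.03 under vehicle and 0.691, 0.771 and 0.529 under ginkgetin, without overlap (exact permutation p 0.10). The monocyte gate, drawn on Chil3 and F13a1, ran from 5.28 to 7.98% under vehicle and from 1.03 to 1.45% under ginkgetin. Members per monocyte thus went the other way, from 0.399, 0.278 and 0.297 under vehicle to 1.06, 0.842 and 0.679 under ginkgetin (exact permutation p 0.10).

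**Figure D1:**
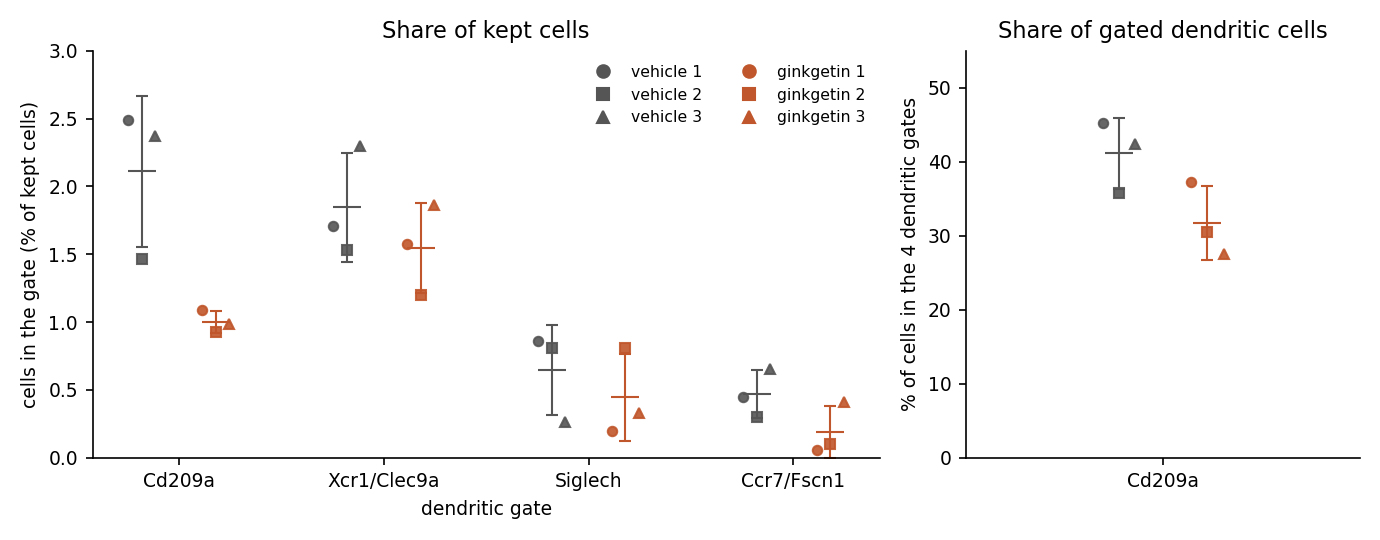
Share of kept cells in 4 dendritic gates (left, percent of kept cells) and share of Cd209a members among the cells of those gates (right, percent), with 1 point per library (grey vehicle, orange ginkgetin, shape for the replicate number) and bars for the mean ± SD of 3 libraries. The vehicle points of the Cd209a gate lie between 1.47 and 2.49% and the ginkgetin points between 0.925 and 1.09%, while the groups overlap in the right panel.

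Depth differed between libraries and bears on a gate that asks for 2 UMIs. After cells were thinned to 2000 UMIs the shares were 1.46, 0.965 and 1.01% under vehicle and 0.829, 0.798 and 0.775% under ginkgetin, still without overlap. Thinning left out cells under 2000 UMIs, unequally between libraries. Ginkgetin replicates 1 and 2 went from 3493 to 2653 and from 6918 to 5386 cells, while vehicle replicate 1 kept its 6017. Restricted to members with a Flt3 UMI, the shares were 1.12% ± 0.544 and 0.548% ± 0.251 (SD, n = 3 each), and the groups overlapped (exact permutation p 0.20).

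The members were next set against type 1 dendritic cells of the same 6 libraries with edgeR's quasi-likelihood test, with the library as a block. A call needed a fold over 2 together with a p under 0.05 after Benjamini-Hochberg adjustment. Among 6150 genes tested the members were higher in 414 (6.73%) and lower in 326 (5.3%). Both gates were drawn on UMIs of these cells, so genes that go along with the gate genes had to differ. The genes of either gate rule were left out of the test.

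Among called genes with a mean of 50 CPM or more, surface lectins and receptors of type 2 cells led the difference. Mgl2, a galactose-type lectin, was at 189 ± 155 CPM in members and 0.762 ± 0.469 CPM in Xcr1/Clec9a cells (SD, n = 6), a log2 fold change of 7.68 ± 0.23 (SE). Its neighbour and relative Clec10a stood at 271 ± 100 against 1.5 ± 1.75 CPM (log2 fold change 7.53). The signal-regulatory gene Sirpb1a, which has near copies, followed with 6.41, then Cd7, a surface protein of T and NK cells, with 5.75 and the chemokine Ccl9 with 5.53. Each of the 5 was higher in the members in 6 of 6 libraries, with an edgeR adjusted p of at most 2.3e-09. Klrd1, the CD94 chain of NK receptors, was at 389 ± 145 against 46.3 ± 29.6 CPM (log2 fold change 3.04).

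The lineage factors differed between the gates. Irf4 was at 46.9 ± 28.2 CPM in members and 1.98 ± 2.30 CPM in Xcr1/Clec9a cells (log2 fold change 4.53 ± 0.34 SE). Irf8 was at 92.2 ± 36.9 against 1688 ± 251 CPM (log2 fold change -4.29 ± 0.16 SE), and Id2 was also lower, by -1.88. Klf4 (1.46) and Zeb2 (3.61) were higher. Batf3 was at 127 ± 35.8 against 223 ± 34.3 CPM, a difference of -0.91 that did not reach the fold limit. Flt3 (-0.69), Zbtb46, a factor of conventional dendritic cells (-0.51), and Itgax (0.40) also stayed under the fold limit, and H2-Ab1 differed by 0.01 ± 0.06 (SE).

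Across the lists, 10 of 12 tested type 2 surface genes were called higher and 1, Cd24a (-3.12), lower, with a median log2 fold change of 3.88 against -0.02 over all genes tested. Of the genes of a monocyte-like type 2 subset (called 2B), 8 of 10 were higher, among them Cx3cr1 (4.81), Csf1r (2.77) and Lyz2 (1.92). Of 12 class II presentation genes 3 were higher and 0 lower. Of 18 cell cycle genes 10 were lower and 0 higher, with a median of -1.12. Sirpa, an inhibitory receptor that marks type 2 cells, was higher by 3.82 ± 0.17 (SE). Of 11 cytokine genes tested 4 were higher and 1 lower, with Il1b at 531 ± 277 against 108 ± 47.7 CPM (2.22).

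Several genes of type 1 cells had 0 to 2 UMIs in all members together. Gcsam, a signalling adaptor, had 0 UMIs in all members and 599 in Xcr1/Clec9a cells, which was at least 117-fold lower against a floor of 3 counts over the 6 libraries. Ttc39a had 0 against 337 UMIs (at least 65.9-fold lower). Cxcr3, the receptor of Cxcl9 and Cxcl10, had 1 against 360 UMIs, a ratio of 211 with a counting interval of 37.7 to 8367. Fzd1, a Wnt receptor, had 1 against 390 (229, interval 40.8 to 9062) and A530099J19Rik 2 against 526 (154, interval 42.5 to 1278).

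Against monocytes of the Chil3/F13a1 gate, the same test called 263 of 4751 genes (5.54%) higher in the members and 306 (6.44%) lower. Here too genes that go along with the gate genes, such as those of classical monocytes, had to differ. Among called genes with a mean of 50 CPM or more, H2-Oa led by size. This gene, which tunes peptide loading of class II, was at 263 ± 65.1 CPM in members and 1.53 ± 3.25 CPM in monocytes (log2 fold change 8.45 ± 0.29 SE). Klrd1 followed with 8.38, Cd7 with 7.45 and Mgl2 with 7.0. Kctd14 had 3 UMIs in monocytes and 214 in members, a ratio of 141 with a counting interval of 47.8 to 691.

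Of 12 class II genes 10 were called higher and 0 lower, with a median log2 fold change of 3.09 against 0.01 over all genes tested. H2-Ab1 was at 1216 ± 583 CPM in monocytes and 9349 ± 1791 CPM in members (SD, n = 6, log2 fold change 3.18 ± 0.16 SE). Flt3 (4.74), Itgax, an integrin of dendritic cells (3.16), Clec10a (3.86), Irf4 (2.13) and the lymphotoxin gene Ltb (3.17) were higher too. Ccnd1, cyclin D1, was at 302 ± 105 against 9.23 ± 7.81 CPM (5.65). Of 7 cell cycle genes tested 5 were higher and 0 lower.

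The genes of monocytes and macrophages were lower. Of 10 classical monocyte genes 9 were called lower and 0 higher, with a median of -2.61, and of 12 monocyte-like 2B genes 7 were lower and 0 higher. Lyz2, lysozyme, was at 2097 ± 856 CPM in members and 25061 ± 5072 CPM in monocytes (log2 fold change -3.51 ± 0.13 SE), and the log2 fold change was -3.00 in Ly6c2 and -3.87 in Fn1, fibronectin. The largest falls by the naming rule were those of Pla2g7 (-5.72), which cleaves platelet-activating factor, Thbs1 (-5.39), Plcb1 (-5.11), Cd177 (-5.11) and the protease inhibitor Slpi (-4.96). Of 13 lipid-associated macrophage genes 9 were lower, with Trem2 at 8.03 ± 6.05 against 140 ± 55.9 CPM (-3.99), and 1, Cd9 (1.20), was higher. Of 17 interferon-stimulated genes 8 were lower and 0 higher. Lyz2 thus lay between the gates, above type 1 cells and below monocytes, as did Cx3cr1 and Csf1r.

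**Figure D2:**
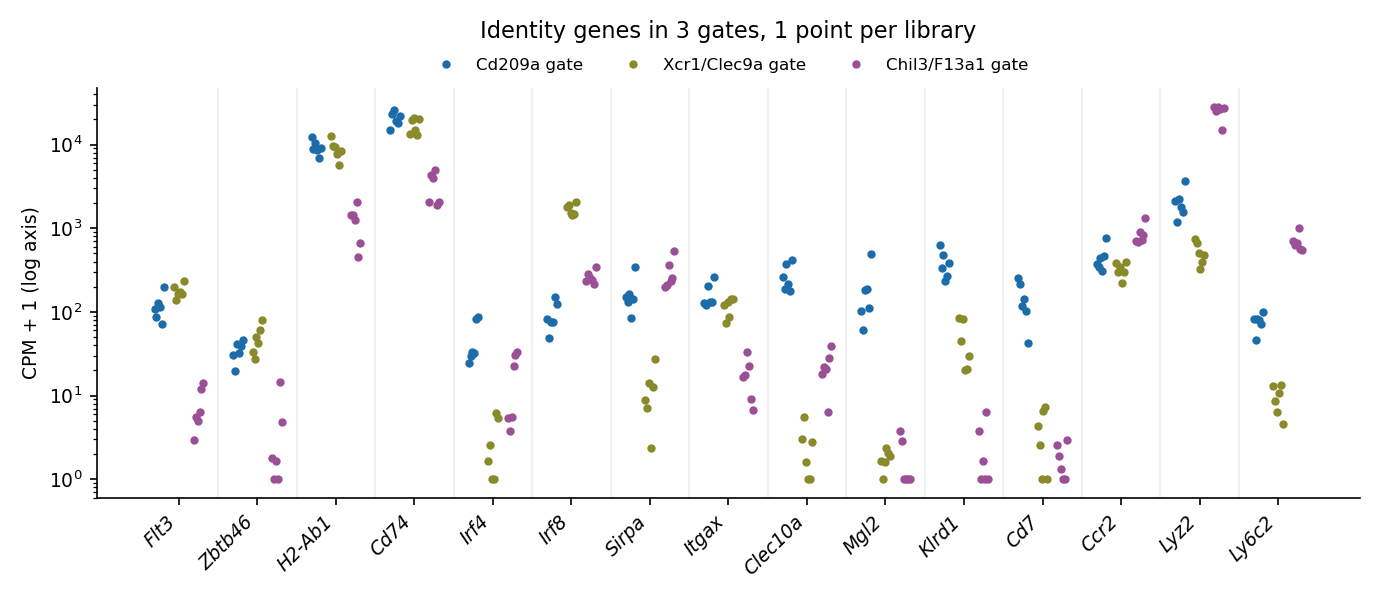
Level of 15 identity genes (CPM + 1, log axis), with 1 point for each of 6 libraries in the Cd209a gate (blue), the Xcr1/Clec9a gate (olive) and the Chil3/F13a1 gate (purple). Flt3, H2-Ab1 and Cd74 of the members lie with the Xcr1/Clec9a cells, Irf8 lies below them, and Lyz2 lies between both other gates.

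The members were not uniform. A Flt3 UMI was found in 227 of 435 (52.2%). The share with a Flt3 UMI was 48.0, 36.7 and 68.4% under vehicle and 44.7, 35.9 and 83.3% under ginkgetin, highest in replicate 3 of each group, where members were deepest (median 11154 and 12942 UMIs, against 6506 to 8295 in the others). After thinning to 2000 UMIs it was still highest there, at 12.7, 12.2 and 24.7% under vehicle and 13.2, 15.6 and 38.9% under ginkgetin. A UMI of the monocyte genes Fcgr1 or Ly6c2 was found in 149 members, 77 of them with a Flt3 UMI as well, and 136 members had none of the 3 genes. Fcgr1 was found in 21.8% of members and 0.619% of T cells, but Ly6c2 in 19.8 and 29.3%. A Ly6c2 UMI thus did not set members apart from T cells. Chil3 and F13a1 reached 2 UMIs together in 26 members. No member met the Ccr7 and Fscn1 condition of mature migratory dendritic cells.

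At least 2 UMIs of Mki67 and Top2a, which are made during division, were found in 30 members. These were 7.33, 2.04 and 4.08% of members under vehicle and 13.2, 7.81 and 11.1% under ginkgetin, from 1 to 11 cells a library, without overlap and without a test. After thinning to 2000 UMIs a Mki67 UMI was found in 3.33, 0 and 4.12% of members under vehicle and in 10.5, 10.9 and 0% under ginkgetin, with overlap. T cells can divide too, so they give no background for these genes, and no cycling is read from these shares.

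For ginkgetin against vehicle, the counts of the members were summed per library and 4422 genes were tested with edgeR's quasi-likelihood test. It called 1 gene higher (0.0226% of those tested) and 6 lower (0.136%), while 575 genes had an unadjusted p under 0.05. All 7 called genes separated the groups without overlap. Separation alone was common, with 248 genes (5.61%) higher and 529 (12%) lower in all ginkgetin libraries. With the replicate number as a block, 15 genes (0.339%) were called higher and 13 (0.294%) lower, and these 28 included the 7. Same-numbered libraries deviated together, but so did vehicle replicate 2 and ginkgetin replicate 1 (correlation 0.241). A pairing of replicates 1 and 2 by number is thus not shown.

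Ifitm1, an interferon-induced membrane protein, had the smallest p. It was at 167, 145 and 154 CPM in vehicle replicates 1 to 3 and at 6.88, 16.7 and 12.5 CPM in ginkgetin replicates 1 to 3 (log2 fold change -3.56 ± 0.31 SE, edgeR adjusted p 0.000892). Every vehicle library was far above every ginkgetin library. The vehicle level came from a minority of members, since 84 of 297 (28.3%) had a UMI, against 13 of 138 (9.42%) under ginkgetin. At least 3 UMIs were found in 45 vehicle members and in 0 of 138 ginkgetin members, which by counting error alone allows up to 2.17% of these pooled cells. Under vehicle Ifitm1 was at most 12.4 CPM in Xcr1/Clec9a cells, 21.7 CPM in monocytes, 5.02 CPM in T cells and 22.8 CPM in B cells. Under ginkgetin it was at 2.76 to 16.9 CPM in Xcr1/Clec9a cells, 5.43 to 24.4 CPM in monocytes, 5.22 to 20.8 CPM in T cells and 5.52 to 57.1 CPM in B cells, so the ginkgetin members lay within the range of the other gates.

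The 45 vehicle members with at least 3 Ifitm1 UMIs were spread over the libraries (18, 8 and 19), and their median depth was 9462 UMIs against 8843 in the 252 other vehicle members. Cd7 was detected in 73.3% of them and 37.7% of the others. The reverse held for Mpeg1, a pore-forming protein of phagocytes (22.2 against 50%), for Mgl2 (13.3 against 23.8%), for Clec10a (48.9 against 63.9%) and for Ccr2 (60.0 against 76.6%). Flt3 was found in 57.8 and 52.0%. The genes of this description were picked after their values were seen, and no test was made.

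Cxcl10, a chemokine that draws Cxcr3-bearing T cells, was at 105, 111 and 160 CPM under vehicle and at 20.6, 11.9 and 20.8 CPM under ginkgetin (log2 fold change -2.76 ± 0.32 SE, adjusted p 0.00637, edgeR). The groups did not overlap, and a few cells held most of the UMIs. Of 129, 42 and 176 vehicle UMIs, 55, 32 and 132 came from 1 member each. Of 297 vehicle members 28 (9.43%) held a Cxcl10 UMI, as did 11 of 138 ginkgetin members (7.97%), and by library these shares overlapped. Under ginkgetin Cxcl10 was at 116 to 255 CPM in endothelial cells and 105 to 190 CPM in monocytes. Its log2 fold change was -1.80 in Xcr1/Clec9a cells, -0.75 in monocytes, -0.92 in T cells and -1.18 in B cells, none of them called.

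Hspa1a, an inducible heat shock protein with a near copy in Hspa1b, was at 1413, 1015 and 812 CPM under vehicle and at 172, 26.3 and 70.6 CPM under ginkgetin (log2 fold change -3.54 ± 0.56 SE, edgeR adjusted p 0.0420). It was lower in other gates of the same libraries too. The log2 fold change was -3.18 in Xcr1/Clec9a cells (edgeR adjusted p 0.169), -3.92 in monocytes (adjusted p 0.0134) and -3.98 in T cells (adjusted p 0.0210).

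Abi3, an adaptor of actin regulation, was at 102, 73.8 and 112 CPM under vehicle and at 20.6, 19.1 and 37.4 CPM under ginkgetin (log2 fold change -1.83 ± 0.29 SE, edgeR adjusted p 0.0420). AA467197, the mouse counterpart of human C15orf48, fell from 117, 108 and 131 CPM to 17.2, 35.8 and 43.6 CPM (-1.77 ± 0.28 SE, adjusted p 0.0420). Cd72, an inhibitory C-type lectin-like receptor, fell from 191, 132 and 232 CPM to 41.3, 47.8 and 68.5 CPM (-1.74 ± 0.26 SE, adjusted p 0.0420). In each of the 3 genes the lowest vehicle library was above the highest ginkgetin library. Abi3 had a UMI in 49.5% of vehicle and 16.7% of ginkgetin members, Cd72 in 48.8 and 25.4%, and AA467197 in 24.9 and 11.6%. By library these shares overlapped between the groups in Cd72, and in Abi3 and AA467197 they did not.

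Trf, transferrin, was the called gene that rose. It was at 114, 103 and 133 CPM under vehicle and at 279, 370 and 315 CPM under ginkgetin (log2 fold change 1.55 ± 0.24 SE, edgeR adjusted p 0.0420). Trf was detected in 46, 42.9 and 75.5% of members in the vehicle libraries and in 65.8, 70.3 and 75% in the ginkgetin libraries, with overlap. In Xcr1/Clec9a cells Trf was at 85.9 to 92.9 CPM under vehicle and 74.9 to 114 CPM under ginkgetin, with overlap.

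These calls were sensitive to the fit. Leaving out 1 library kept only some of the 7 genes. There were 2 calls without vehicle replicate 1 or without vehicle replicate 2, 3 without vehicle replicate 3 or without ginkgetin replicate 1, and 1 without ginkgetin replicate 2 or without ginkgetin replicate 3. Ifitm1 was called in each of the 6, and Cxcl10 in the first 4 of them. Over all alternatives run for a gene, Ifitm1 was called in 18 of 19, Cxcl10 in 14 of 18, Hspa1a in 11 of 20, Cd72 in 8 of 20, Trf in 7 of 20, and Abi3 and AA467197 in 6 of 19 each. With no cell filter the log2 fold change of Trf was 0.39 (edgeR adjusted p 0.813), and in members with a Flt3 UMI that of AA467197 was -1.0 (adjusted p 0.409). That of Cxcl10 was -1.68 with at least 1 Cd209a UMI (adjusted p 0.210) and -3.63 with at least 3, and that of Hspa1a was -4.54 without ginkgetin replicate 1. Over its alternatives the log2 fold change ran from -3.95 to -3.41 in Ifitm1, from -2.03 to -1.52 in Cd72 and from -2.07 to -1.55 in Abi3.

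**Figure D3:**
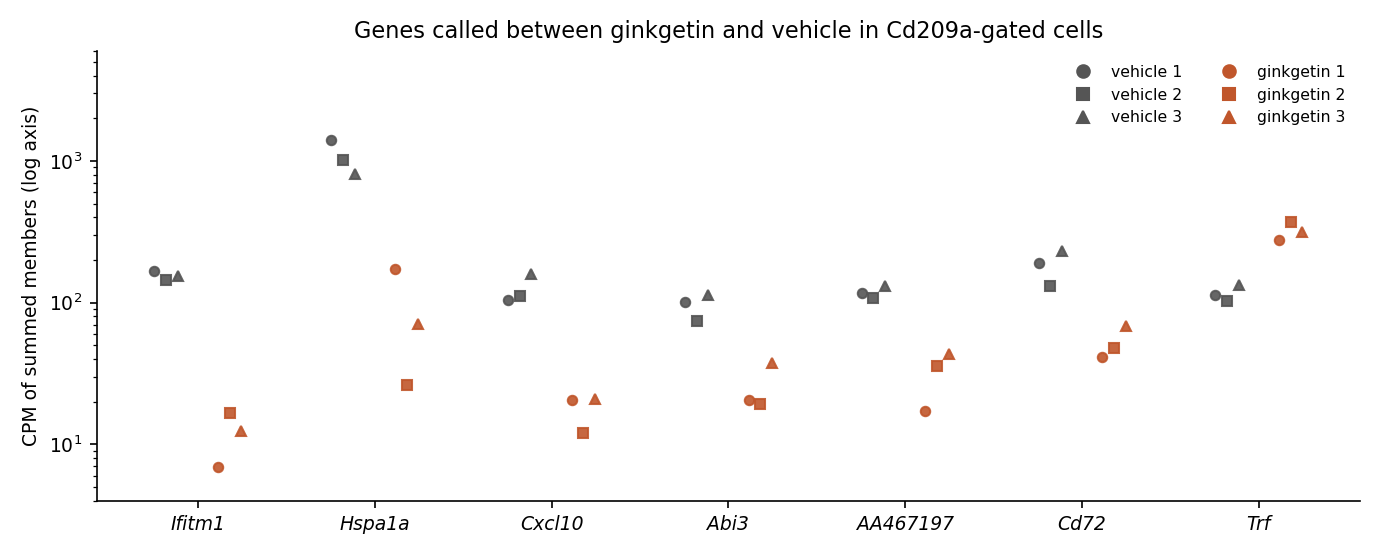
Level in the members (CPM, log axis) of the 7 genes called between ginkgetin and vehicle, with 1 point per library (grey vehicle, orange ginkgetin, shape for the replicate number). Ifitm1, Hspa1a, Cxcl10, Abi3, AA467197 and Cd72 lie lower and Trf lies higher in each of 3 ginkgetin libraries.

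The next rises in order of p were not called by edgeR without a block, but were called with the replicate block and by DESeq2. Scd2, a fatty acid desaturase, was at 24.4, 18.4 and 25.4 CPM under vehicle and at 51.6, 76.4 and 83.0 CPM under ginkgetin (log2 fold change 1.67 ± 0.29 SE, edgeR adjusted p 0.0667, with the block 0.0325). Hmgcs1, an enzyme of cholesterol synthesis, was at 22.8, 15.8 and 29.9 against 79.2, 54.9 and 83.0 CPM (1.67 ± 0.31 SE, adjusted p 0.0940, with the block 0.0262). Mpeg1 was at 93.6, 89.6 and 149 against 237, 222 and 496 CPM (1.56 ± 0.30 SE, adjusted p 0.126, with the block 0.00693). They were picked from genes whose groups did not overlap, and 5.61% of all genes tested lay higher without overlap. Mpeg1 was detected in 45.8% of the vehicle members and 76.1% of the ginkgetin members.

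Dnase1l3, a secreted DNase made by dendritic and by sinusoidal endothelial cells, was at 19.5, 15.8 and 4.53 CPM under vehicle and at 75.7, 76.4 and 43.6 CPM under ginkgetin (log2 fold change 2.41 ± 0.51 SE, edgeR adjusted p 0.178, with the block 0.00981). Its log2 fold change was 2.74 in T cells and 2.03 in B cells. The endothelial gene Ptprb was at 0.814, 15.8 and 4.53 CPM in the vehicle members and at 27.5, 377 and 12.5 CPM in the ginkgetin members. The part of endothelial RNA in its rise was not tested.

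**Figure D4:**
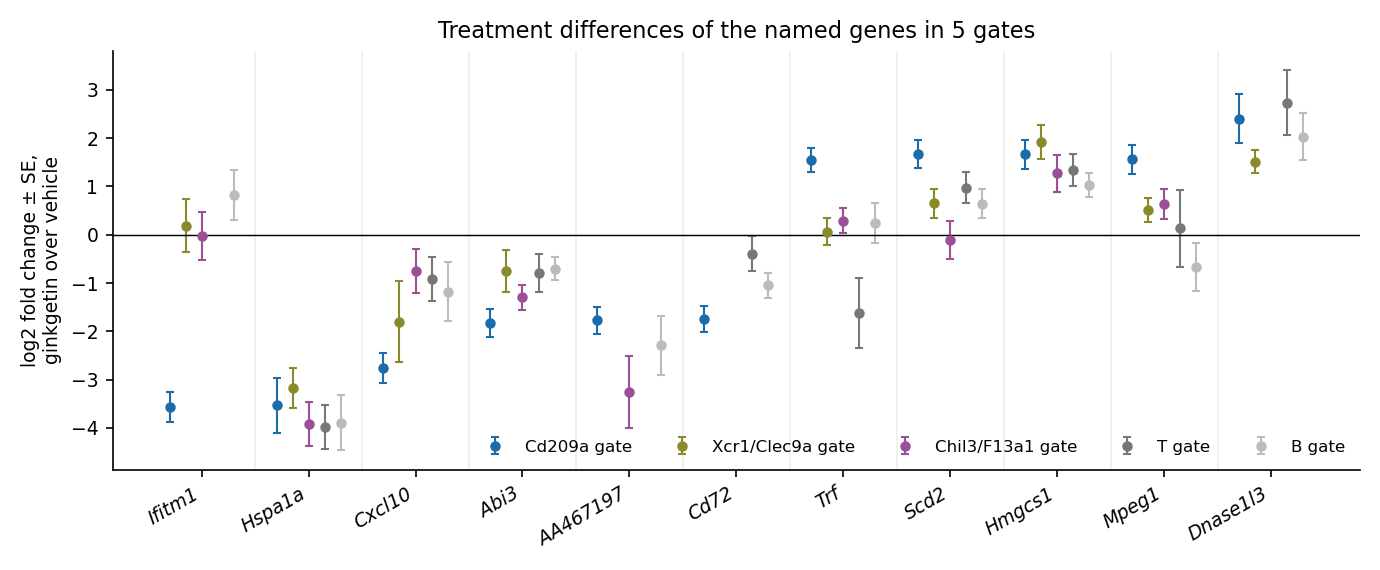
Difference between ginkgetin and vehicle (log2 fold change ± SE, edgeR) of 11 genes in the Cd209a, Xcr1/Clec9a, Chil3/F13a1, T and B cell gates of the same 6 libraries. Hspa1a lies below 0 in the 5 gates, whereas Ifitm1 lies far below 0 in the Cd209a gate. A gene not tested in a gate has no point there. This holds for Ifitm1 in the T gate and Cd72 in the Xcr1/Clec9a and Chil3/F13a1 gates. It also holds for AA467197 in the Xcr1/Clec9a and T gates and Dnase1l3 in the Chil3/F13a1 gate.

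None of the fixed identity genes was called between treatments by edgeR without a block. Irf4 was at 23.6, 29.0 and 31.7 CPM under vehicle and at 31.0, 81.2 and 85.1 CPM under ginkgetin, with overlap (log2 fold change 1.34 ± 0.36 SE, edgeR adjusted p 0.190, with the replicate block 0.0788). With the set of barcodes (replicates 1 and 2 against replicate 3) as the block, Irf4 was called, at an adjusted p of 0.0497. Mgl2 was at 103, 60.6 and 183 CPM under vehicle and at 186, 110 and 490 CPM under ginkgetin (1.18 ± 0.46 SE, adjusted p 0.305). The Mgl2 groups overlapped, but within each replicate number ginkgetin was higher, and the fit with the block called it (adjusted p 0.0317). Fabp5, a fatty acid binding protein, was at 85.5, 36.9 and 88.9 against 6.88, 11.9 and 31.1 CPM without overlap (-1.97 ± 0.44 SE, adjusted p 0.18, with the block 0.0368). The log2 fold change of Fabp5 was -2.42 in monocytes (edgeR adjusted p 0.0301) and -1.79 in Xcr1/Clec9a cells (adjusted p 0.265). It was -0.27 in T cells and -0.59 in B cells, not called.

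Of the other fixed genes, Irf8 differed by 0.83 ± 0.29 (SE, edgeR adjusted p 0.293), Ltb by -0.66, Csf1r by 0.50 and Klf4 by 0.43 on the log2 scale, with overlap in each. The differences were 0.28 in Flt3, -0.27 in H2-Ab1, -0.03 in Cd74, the class II invariant chain, 0.38 in Sirpa, 0.04 in Clec10a, 0.44 in Ccr2 and 0.02 in Il1b. These 7 genes overlapped between the groups, with edgeR adjusted p values from 0.541 to 0.989. Their SE, 0.28 to 0.42, sets what could be seen with 3 libraries a group. Tbx21, Ccr7 and Trem2 were too low to be tested. Trem2 was at 9.77, 18.4 and 9.97 CPM under vehicle and at 3.44, 2.39 and 4.15 CPM under ginkgetin. In T cells, which should lack it, Trem2 was at 9.56, 13.8 and 12.3 CPM under vehicle and at 0, 0 and 0.590 CPM under ginkgetin, so under vehicle the members were near the level of T cells.

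Antigen presentation genes lay slightly below 0 as a list. Of 12 class II genes tested none was called, 3 had a log2 fold change above 0 and 9 below, and the median was -0.24 against 0.02 over all genes tested. In 5 of them (H2-Aa, H2-Eb1, H2-DMb1, H2-Oa and Lgmn) each ginkgetin library was lower than each vehicle library, as in 12% of all genes tested. H2-Oa was at 340, 308 and 291 CPM under vehicle and at 206, 167 and 264 CPM under ginkgetin (-0.50 ± 0.23 SE, edgeR adjusted p 0.39). Of 11 class I genes none was called, and the median was -0.21.

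Lineage genes lay slightly above 0 as a list. Of 18 lineage factors and growth receptors none was called, 13 were above 0 (51.3% of all genes tested were) and the median was 0.38. Batf3 did not overlap between the groups, at 94.4, 87.0 and 104 CPM under vehicle and 165, 150 and 162 CPM under ginkgetin (0.81 ± 0.22 SE, edgeR adjusted p 0.19). Of all genes tested 5.61% lay higher without overlap. Notch2, a receptor on which some type 2 dendritic cells depend, was at 61.9, 52.7 and 58.0 against 58.5, 215 and 133 CPM (1.33 ± 0.38 SE, adjusted p 0.207). The Notch2 groups overlapped, and ginkgetin replicate 2 was the highest. Of 12 type 2 surface genes none was called, with a median of 0.14.

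The 2A and 2B gene sets of type 2 cells did not separate the treatments by the test. Of 12 monocyte-like 2B genes 8 were above 0, and in 3 of them (Clec12a, Fcgr3 and Sirpb1c) the groups did not overlap, against 5.61% of all genes tested higher without overlap. The median was 0.40. Of 4 T-bet-linked 2A genes tested 1 was above 0, with a median of -0.32, and Tbx21 itself was at 0 to 10.5 CPM. Of 9 classical monocyte genes 3 were above 0, with a median of -0.21, and Fn1 was called higher with the block. The Fn1 groups overlapped, and in ginkgetin replicate 3 1 member held 47 of 104 Fn1 UMIs.

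Cytokine and chemokine genes had 1 call among 10 tested, the fall of Cxcl10, against 0.136% of all genes called lower, and a median of -0.52. Ccl9 (449, 443 and 277 against 213, 263 and 247 CPM) and Cxcl16 (144, 192 and 160 against 120, 119 and 91.3 CPM) also lay lower in all ginkgetin libraries, as did 12% of all genes, neither of them called. Of 8 maturation genes tested none was called, and Marcks, which was higher in all ginkgetin libraries (96, 132 and 190 against 227, 232 and 523 CPM), was called with the block. Of 11 interferon-stimulated genes tested 4 were above 0, none was called and the median was -0.28. Ifitm1 was not on that list.

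Of 10 lipid-associated macrophage genes tested 9 were below 0 and none was called, with a median of -0.43. The sum of the 16 listed genes in members was 2635 to 3158 CPM under vehicle and 1752 to 2233 CPM under ginkgetin. That sum was lower under ginkgetin in T cells too, at 731 to 1129 against 1754 to 2160 CPM. In monocytes it was at 5772 to 5910 against 9952 to 14226 CPM. Besides Fabp5, the galectin Lgals3, Ctsd and Cd68 were lower without overlap between the groups, as were 12% of all genes tested. Lgals3 was at 1504, 1183 and 1455 CPM under vehicle and at 960, 752 and 946 CPM under ginkgetin (-0.56 ± 0.26 SE, edgeR adjusted p 0.39). All 12 cell cycle genes tested were above 0, with a median of 0.77 and no call. After thinning each cell to 2000 UMIs the median of those still tested was 0.01, and without ginkgetin replicate 3 it was 1.47. Levels of Mki67 (33.4, 13.2 and 22.7 against 58.5, 59.7 and 64.3 CPM) and Pcna were higher without overlap, as were 5.61% of all genes tested.

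Of 19 immediate-early and heat shock genes 1, Hspa1a, was called lower, against 0.136% of all genes tested. Hspa1b, Hsp90aa1, Hspa8 and Jun also lay lower in all ginkgetin libraries (12% of all genes tested did), and of these Hspa1b was called lower with the block (edgeR adjusted p 0.0464) and by DESeq2 (adjusted p 0.00606). Egr1 lay higher (21.2, 65.9 and 74.4 against 155, 138 and 220 CPM) and was called with the block and by DESeq2. Fos overlapped, at 413 to 845 CPM under vehicle and 790 to 977 CPM under ginkgetin. These genes respond to tissue handling, and when each liver was digested was not given in the sources used here.

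Epcam, an epithelial adhesion molecule also found on some dendritic cells, was detected in 25.9% of vehicle and 8.70% of ginkgetin members and was called lower with the block. At least 2 UMIs of Epcam and the stellate cell gene Dcn together were found in 54 members. Other biliary markers were at or near 0 in the 435 members, with 1 UMI of Krt19, 7 of Krt7 and 1 of Sox9. The summed level of 4 cholangiocyte genes was 58.6 to 140 CPM under vehicle and 6.88 to 38.2 CPM under ginkgetin.

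**Figure D5:**
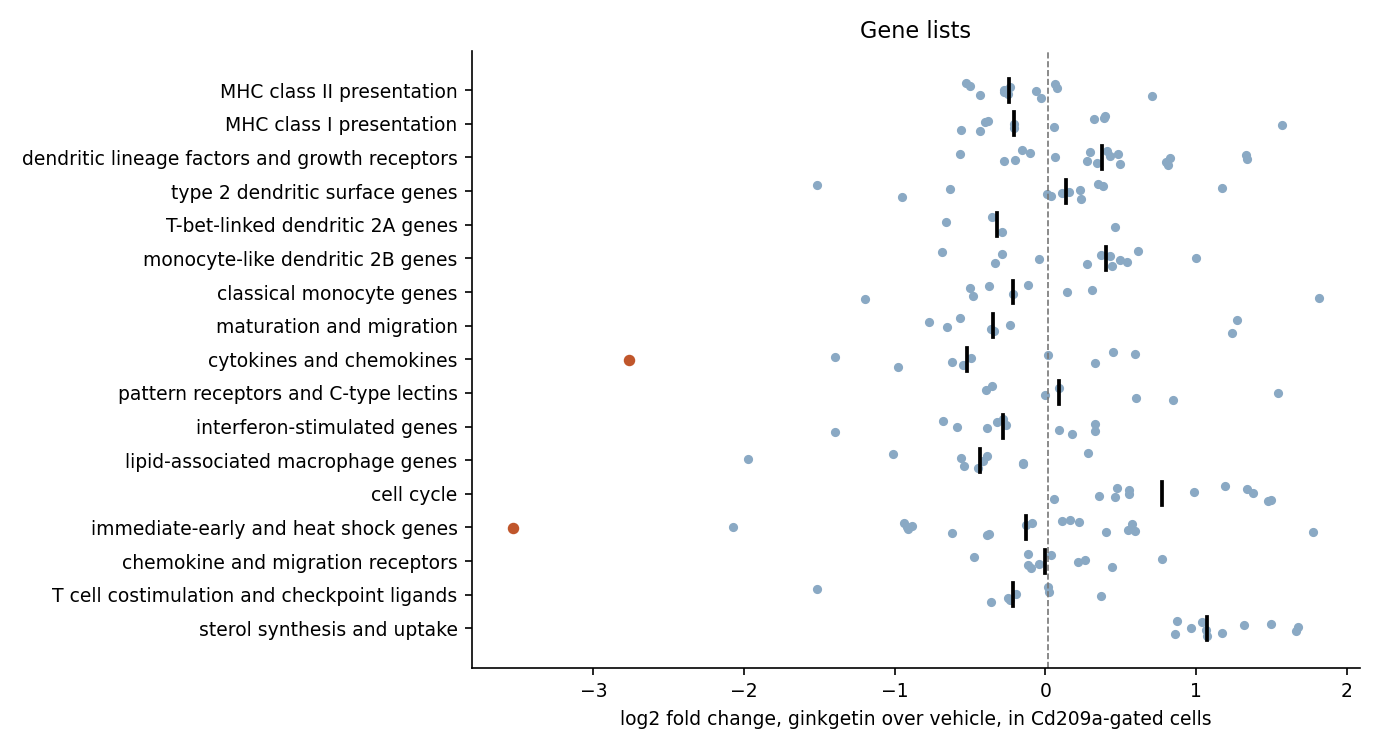
Difference between ginkgetin and vehicle in the members (log2 fold change, edgeR) by gene list, with 1 dot per tested gene (blue, orange where called), a black bar for the list's median and a dashed line for the median of all 4422 genes tested. The dots of the cell cycle list lie above 0, at a median of 0.77 (0.01 after thinning), and those of the lipid-associated macrophage list lie mostly below it, at -0.43.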

How the data were processed

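Raw UMI counts per gene and cell, as deposited by the authors in 6 tables of 19349 gene symbols, were used without further scaling. The submitters' processing notes name the builds GRCm38 and mm10, and the aligner and annotation were not given in the sources used here. Each library held a total of 13128697 to 61796882 UMIs. The sources name a 10x system for these libraries and also, in the labels, a bulk RNA kit. Replicates 1 and 2 were at 0 throughout in 2253 genes and replicate 3 in 946 others, so 16150 genes were used and 3199 left out. The study's range of 250 to 5000 UMIs per cell was tried as an alternative, since members were deeper.

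Members and gene lists were chosen with earlier results of these data known. Counts were summed per library and gate (at least 10 cells) and fitted with edgeR 4.0.16 (TMM, filterByExpr, quasi-likelihood F test; limma 3.58.1, DESeq2 1.42.0, R 4.3.3), tested on simulated data, with calls at an adjusted p under 0.05 and a fold over 2. Genes of the gate rules were not tested. Shares were compared by exact permutation over libraries (scipy 1.17.1, numpy 2.4.6, pandas 2.3.3, matplotlib 3.10.9, Python 3.11.15). Named were a fixed list of 24 genes plus, per direction, the 5 largest called differences without overlap and a mean of 50 CPM or more, filled in order of p. Cd72, which is called but outside this rule, is named as well. Genes of lists are named as examples after their values were seen. Possible doublets were left out only in an alternative.

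Same-numbered libraries of the groups had correlated deviations from their group means over 4422 genes (r 0.222, 0.205 and 0.556), and other pairings ran from -0.387 to 0.241. The 0.241 was that of vehicle replicate 2 with ginkgetin replicate 1, above the same-numbered pairs of replicates 1 and 2. These values set replicate 3 apart and do not show which libraries of replicates 1 and 2 belong together. The replicate number was taken as a block in a fit beside the fit without it. Gene positions come from RefSeq on GRCm38. No annotation of cells was used, and no other columns of samples were found. Some genes are not reported here.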

Additional observations from a re-analysis of the deposited data

Results flagged for a closer look

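The difference between ginkgetin and vehicle was itself compared between gates of the same libraries with an interaction term in edgeR, a test added after the data were seen. It called 15 of 7313 genes between the Cd209a and the Xcr1/Clec9a gate and 35 of 5769 between the Cd209a and the Chil3/F13a1 gate. Among the named genes the effect on Ifitm1 in the members was lower than that in Xcr1/Clec9a cells, by -3.93 on the log2 scale (edgeR adjusted p 0.00245), and than that in monocytes, by -3.50 (adjusted p 0.00236). Cxcl10 fell more than in monocytes, by -2.10 (adjusted p 0.0151). Its difference to Xcr1/Clec9a cells was not called (-1.16, adjusted p 0.708), and there Cxcl10 had a log2 fold change of -1.80 (adjusted p 0.343). The effect on AA467197 was lower than in Xcr1/Clec9a cells, by -3.60 (adjusted p 0.0411), where it was at 1.54 to 3.98 CPM under vehicle and at 24.1 CPM in ginkgetin replicate 3. The difference to monocytes was not called (1.5, adjusted p 0.661), and there AA467197 had a log2 fold change of -3.26 (adjusted p 0.0811), with -2.29 in B cells (adjusted p 0.246).

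Trf rose more in the members than in Xcr1/Clec9a cells, by 1.40 (edgeR adjusted p 0.00523), and than in monocytes, by 1.18 (adjusted p 0.00225). Scd2 differed from monocytes by 1.73 (adjusted p 0.0287), and its difference to Xcr1/Clec9a cells was not called (0.97, adjusted p 0.329). Cd9, which was not called in the members, differed from monocytes by 1.63 (adjusted p 0.00499), with an effect of -0.15 in members and -1.79 in monocytes. The difference of Cd9 to Xcr1/Clec9a cells was not called (0.24, adjusted p 0.836).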

How the results depend on the processing

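Few members (36 to 150 per library) and 3 libraries per group limit these results. The lower share of members kept its direction in all alternatives, from -1.43 to -0.918 points with 1 library left out. With cells of 250 to 5000 UMIs, which leaves 15 vehicle and 14 ginkgetin members, it was -0.121 points with overlap (exact permutation p 0.20), and the gene fits of that setting were not run, since all but 1 library held under 10 members. It was -0.344 points after thinning each cell to 2000 UMIs and -0.571 points (exact permutation p 0.20) for members with a Flt3 UMI. The share among gated dendritic cells was -14.9 points in replicate 3 alone and -12.1 to -7.26 points with 1 library left out. Its groups no longer overlapped with at least 3 Cd209a UMIs (-10.4 points, exact permutation p 0.10) and with 250 to 5000 UMIs (-15.5 points, p 0.10), and without vehicle replicate 2 or ginkgetin replicate 1.

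The 7 calls between treatments became 2 with no cell filter, 3 with at least 1 and 4 with at least 3 Cd209a UMIs, 3 with a C1q sum of at most 10, 1 after thinning (807 genes tested), 1 in members with a Flt3 UMI and 3 with possible doublets left out. They became 20 with DESeq2, 0 with limma-voom (636 genes at an unadjusted p under 0.05), 140 without the filter on low counts, 21 in replicates 1 and 2 alone and 1 to 3 with 1 library left out. They stayed 7 with RLE normalization and without the fold limit. The cause was not tested.

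With the replicate block, which pairs same-numbered libraries, 28 genes were called, and 74 with the set of barcodes (replicates 1 and 2 against replicate 3) as the block. Under the block the share differences stayed at -1.11 points and -9.39 points (exact permutation of signs within pairs, p 0.25, the smallest that 3 pairs can give). Without the library block, 660 genes were called against Xcr1/Clec9a cells and 543 against monocytes. Without the filter on low counts these counts were 1465 and 1500, and after thinning 75 and 112.

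The medians of gene lists between treatments moved by 0.25 or more on the log2 scale in 52 of 376 values over all lists and alternatives, and 34 had the other sign. The median ranged from -0.40 to -0.05 for class II, 0.22 to 0.54 for lineage factors, 0.01 to 1.47 for cell cycle and -0.60 to -0.29 for lipid-associated macrophage genes. After thinning, which left 807 genes tested, it was 0.31 for cytokines and -0.26 for 2B genes. For maturation it was then 0.89, which is the value of Marcks alone. How many genes of each list remained after thinning is not given here. Over all alternatives the median ran from -0.51 to 0.43 for 2A genes and from -0.53 to 0.12 for interferon-stimulated genes.

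Among identity genes with small differences the sign turned in some alternatives. Leaving out 1 library moved the log2 fold change from -0.0404 to 0.51 in Flt3, -0.24 to 0.10 in Cd74, -0.0210 to 0.50 in Itgax, -0.17 to 0.64 in Sirpa, -0.25 to 0.31 in Clec10a, -0.56 to 0.26 in Cx3cr1 and -0.30 to 0.78 in Il1b. Cd74 was 0.0809 with at least 3 Cd209a UMIs, 0.16 thinned, 0.0755 with possible doublets left out, 0.0094 with the block, 0.00056 with limma-voom and 0.15 in replicates 1 and 2. Itgax was -0.13 and Il1b -0.20 in members with a Flt3 UMI. In replicates 1 and 2 Sirpa was -0.10 and Cx3cr1 0.43. Clec10a was -0.12 and Il1b -0.19 with at least 1 Cd209a UMI, and -0.13 and -0.14 without the filter on low counts. Thinned, Clec10a was -0.18 and Lyz2 -0.21. With possible doublets left out, Ltb was 0.14, Cd86 0.17 and Cd9 0.25. None of the values whose sign turned was called.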

Other observations

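Genes of sterol synthesis and uptake were looked at after Hmgcs1 had been seen, so the list is a description with no test. Of 20 genes listed 11 were tested in the members, and all 11 had a log2 fold change above 0 between ginkgetin and vehicle, with a median of 1.08 against 0.02 over all genes tested. EdgeR called 0 of them without a block (10 at an unadjusted p under 0.05) and 2 with the replicate block, among them Hmgcs1, and DESeq2 called Hmgcs1 without a block. Of all 4422 genes tested 575 had an unadjusted p under 0.05, and 0.339% were called higher with the replicate block. In 7 genes, among them Hmgcs1, Sqle, Fdps, Cyp51, Msmo1 and Stard4, all ginkgetin libraries were above all vehicle libraries, as in 5.61% of all genes tested. Fdps, which makes farnesyl diphosphate, was at 48.0, 44.8 and 48.1 against 75.7, 78.8 and 89.3 CPM. Hmgcs1 was also above 0 in the other gates, with log2 fold changes of 1.92 in Xcr1/Clec9a cells, 1.27 in monocytes, 1.35 in T cells and 1.02 in B cells, none of them called. Scd2 is not on the list.

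Against monocytes, 6 of 11 genes of this list were called higher in the members and 0 lower, with a median log2 fold change of 1.15, where 5.54% of all genes tested were called higher. Against Xcr1/Clec9a cells 1 of 13 was called higher, which is near the 6.73% of all genes tested.

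Ccl17, a chemokine of mature dendritic cells, varied widely between libraries of a group. It was at 96.9, 10.5 and 91.6 CPM under vehicle and at 17.2, 35.8 and 450.4 CPM under ginkgetin. Tnfsf9, the 4-1BB ligand, was at 48.8, 119 and 273 CPM under vehicle and at 34.4, 50.1 and 60.2 CPM under ginkgetin (log2 fold change -1.51, edgeR adjusted p 0.293).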
